A study of Mus musculus with 2 samples.

Results

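The genes described here are the ligands and receptors of the tumour necrosis factor (TNF) superfamily. They were taken by name as every gene whose symbol starts with Tnfsf or Tnfrsf, together with 12 family genes that have other names, of which 11 were measured. This gave 40 of the 19505 genes with a value, 15 ligands and 25 receptors, each read by 1 probe set that shared its pair of values with no other gene. The members Cd27, Tnfsf12 and Tnfsf13 were not analysed here.

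Both groups were untreated macrophages that had been differentiated from marrow of mice with the growth factor M-CSF, at 25 ng/mL from day 0 with a second dose on day 3, for use from day 5. One group had the genotype LysM (+);MC4RTB/TB (LysM(+) below, 1 array), and it was compared with a group of the genotype MC4RTB/TB (TB/TB below, 1 array), so that both carried the TB allele of the melanocortin 4 receptor gene on both copies. As background, a TB allele carries a transcription blocker that Cre recombinase can remove, and LysM names the myeloid gene Lyz2 that often drives Cre; the labels spell out neither, and give no age, sex or number of animals. Expression was measured on whole-transcript arrays as log2 values, and the 2 arrays carry no replicate, so no difference below has an error or a test.

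In background terms, TNF superfamily ligands are trimeric proteins, made mostly on the cell surface and in part shed from it, that cluster their receptors on the same or a neighbouring cell. Receptors with a death domain can recruit the FADD and caspase-8 machinery of cell death or, through TRADD, inflammatory signalling, while the other signalling receptors bind TRAF adaptors and feed the NF-kB and MAP kinase pathways; decoy receptors bind ligand without signalling. Macrophages are a major source of TNF itself and carry many of the receptors.

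A member was counted as higher or lower when the arrays differed by 1.5-fold or more and its brighter value was at or above a brightness floor, a log2 value of 6.12, the median of the named probe sets. By that rule 7 of the 40 members were counted, against 8.35% of all genes. Of these, 3 were higher in LysM(+) macrophages (Tnf, Tnfrsf11a and Tnfrsf22), against 5.67% of all genes. Another 4 were lower (Fas, Tnfrsf26, Tnfrsf14 and Tnfrsf4), against 2.68% of all genes. The remaining 33 members did not pass. At 2-fold, Tnf alone passed, against 1.69% of all genes higher and 0.446% lower. These counts are small, and with 1 array per group they describe the 2 arrays only.

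A member could be counted only where it reached the floor. At least 1 array was at or above the floor for 5 of 15 ligands (33.3%), for 17 of 25 receptors (68.0%) and for 52.0% of all genes, a comparison that also depends on how well each probe set responds. Of the ligands, 1 was higher and 0 were lower, and of the receptors, 2 were higher and 4 were lower. Thus 6.67% of ligands and 24% of receptors were counted, against 8.35% of all genes and 16.1% of those that reached the floor. The ligand share is near that of all genes, and it rests on 1 gene. The median difference, LysM(+) minus TB/TB, was -0.02 for ligands (from -0.38 to 1.28) and -0.03 for receptors (from -0.76 to 0.85), beside -0.01 for all genes. By sign alone, 7 ligands were higher and 8 lower, and 12 receptors were higher and 13 lower.

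**Figure D1:**
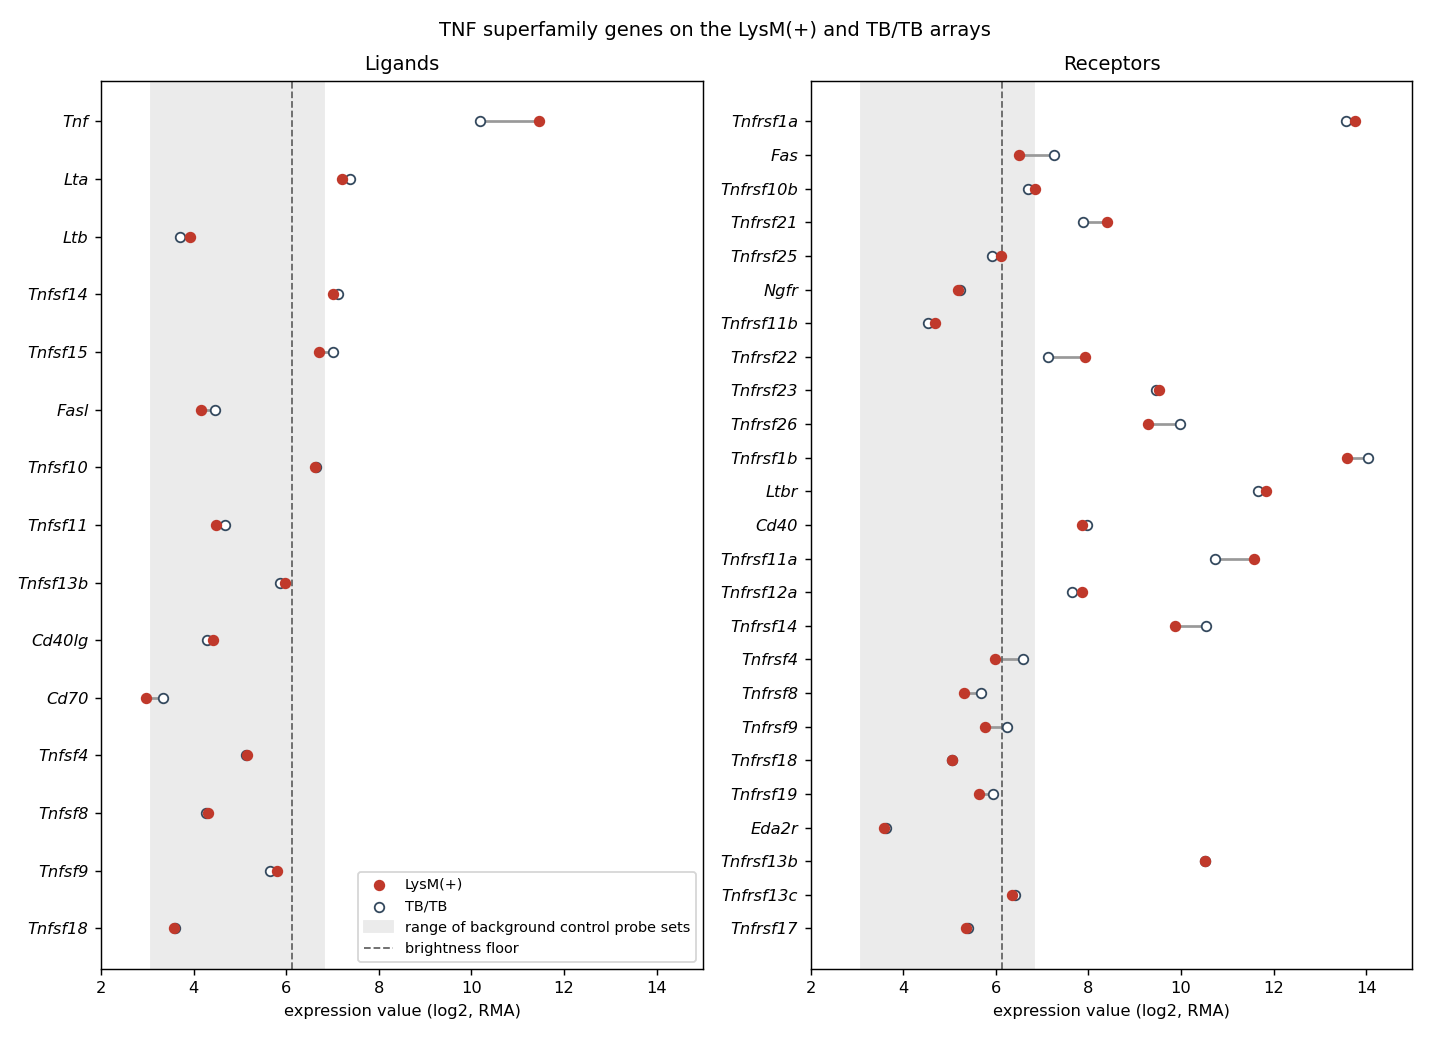
Log2 expression values (horizontal axis) of the 15 ligands (left) and 25 receptors (right), with a filled point for the LysM(+) array and an open point for the TB/TB array; the grey band spans the background control probe sets and the dashed line is the brightness floor of 6.12. Tnf, Tnfrsf11a and Tnfrsf22 are the members whose LysM(+) point lies at least 1.5-fold to the right above the floor. Levels of different genes are not comparable, since each probe set responds differently.

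Tnf encodes the founding ligand of the family, an inflammatory cytokine that acts on both TNF receptors. Its log2 value was 11.47 in LysM(+) macrophages and 10.19 in TB/TB macrophages. Both values lay above the background controls, which ranged from 3.09 to 6.81. The difference of 1.28, or 2.43-fold, was the largest of the 40 in either direction. Among all genes with a mean value from 10 to below 13, the range that holds Tnf, 9.23% were at least 1.5-fold higher in LysM(+).

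None of the other 4 inflammatory ligands was counted, and only Lta and Tnfsf14 among them lay above the background controls on both arrays. Lta encodes lymphotoxin alpha, which as a trimer binds the TNF receptors, and had 7.21 in LysM(+) and 7.37 in TB/TB. Ltb encodes lymphotoxin beta, its membrane partner in binding Ltbr, and was under the floor at 3.92 in LysM(+) and 3.69 in TB/TB. Tnf lies between these genes on chromosome 17, with Ltb on one side and Lta on the other as its direct protein-coding neighbours, so the ligand gene with the largest difference was flanked by family genes at 0.23 and -0.16. Of the 9 other measured genes within 5 protein-coding genes of this trio, 1 was higher and 1 lower by the same rule, with a median difference of -0.32. Over all genes 5.67% were higher and 2.68% lower. LIGHT, the product of Tnfsf14 and a ligand of HVEM and the lymphotoxin beta receptor, had 7.00 in LysM(+) and 7.11 in TB/TB. TL1A, encoded by Tnfsf15, had 6.72 in LysM(+), within the background control range, and 7.00 in TB/TB.

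Death, bone and B cell ligands gave little signal on either array. TRAIL, the product of Tnfsf10, which triggers apoptosis through Tnfrsf10b, had 6.62 in LysM(+) and 6.64 in TB/TB, above the floor but within the background controls. Fasl, the ligand of Fas, was under the floor at 4.15 in LysM(+) and 4.46 in TB/TB. So was RANKL, the osteoclast factor encoded by Tnfsf11, at 4.48 in LysM(+) and 4.68 in TB/TB. The B cell survival factor BAFF, from Tnfsf13b, had 5.96 in LysM(+) and 5.86 in TB/TB. All 6 ligands that costimulate T cells (Cd40lg, Cd70, Tnfsf4, Tnfsf8, Tnfsf9 and Tnfsf18) were under the floor on both arrays, with values from 2.96 to 5.79 in LysM(+) and from 3.34 to 5.66 in TB/TB and differences between -0.38 and 0.14. For these 10 dim ligands the arrays cannot show whether the genotypes differed.

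Neither receptor of TNF was past 1.5-fold, and their small differences had opposite signs. Tnfrsf1a encodes TNF receptor 1, the widely expressed death domain receptor, and had 13.77 in LysM(+) and 13.57 in TB/TB, a difference of 0.20. Tnfrsf1b encodes TNF receptor 2, which binds TRAF2 and is more restricted to immune and endothelial cells, and had 13.60 in LysM(+) and 14.05 in TB/TB, a difference of -0.45. Both were far above the background controls on both arrays. Thus the ligand was 2.43-fold higher in LysM(+), while its receptors stayed within 1.15-fold and 1.37-fold between the arrays.

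Among the other death domain receptors, Fas was the one past the threshold. Fas, which starts apoptosis when bound by Fas ligand, had 6.50 in LysM(+) and 7.26 in TB/TB, 1.70-fold lower in LysM(+). The LysM(+) value was within the range of the background controls, so the fold is not exact. Of all genes with a mean value from the floor to below 8, 6.98% were at least 1.5-fold lower. Tnfrsf21 encodes death receptor 6 and had 8.40 in LysM(+) and 7.87 in TB/TB, a 1.44-fold higher value just short of the threshold. Tnfrsf10b, the TRAIL receptor, had 6.84 in LysM(+) and 6.69 in TB/TB. Tnfrsf25, the receptor of TL1A, at 6.10 in LysM(+) and 5.92 in TB/TB, and Ngfr, the low-affinity neurotrophin receptor, at 5.18 in LysM(+) and 5.23 in TB/TB, were under the floor.

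Tnfrsf11a encodes RANK, the receptor through which RANKL turns macrophage precursors into osteoclasts. It had 11.58 in LysM(+) and 10.73 in TB/TB, both well above the background controls, and at 1.80-fold was the receptor with the largest positive difference. Its ligand gene Tnfsf11 and the soluble decoy of that ligand, osteoprotegerin (Tnfrsf11b, 4.68 in LysM(+) and 4.53 in TB/TB), were both under the floor. Of 11 osteoclast genes that act after RANK, 2 were higher in LysM(+), 1 was lower and 8 did not pass. Their median difference was 0.01. Among all genes 5.67% were higher and 2.68% lower. Of those that reached the floor, as 8 of the 11 did, 10.9% were higher and 5.16% lower. Fos, the AP-1 subunit that osteoclast formation needs, had 12.00 in LysM(+) and 9.90 in TB/TB, 4.29-fold higher. Dcstamp, needed for the fusion of osteoclast precursors, went the other way at 8.75 in LysM(+) and 9.72 in TB/TB, 1.96-fold lower. The matrix protease gene Mmp9 had 6.45 in LysM(+) and 5.30 in TB/TB, within the background controls on both arrays. Nfatc1, the master transcription factor of osteoclasts, named after its value was seen, had 11.45 in LysM(+) and 11.25 in TB/TB.

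The TRAF-binding receptors that were lower included Tnfrsf14, which encodes HVEM, a receptor for LIGHT that also engages the inhibitory receptor BTLA. It had 9.87 in LysM(+) and 10.55 in TB/TB, 1.59-fold lower and above the background controls on both arrays. From 10 to below 13 in mean value, 2.72% of all genes were at least 1.5-fold lower. Ltbr, the other receptor of LIGHT, had 11.83 in LysM(+) and 11.66 in TB/TB. Tnfrsf4 encodes OX40, a T cell costimulator, and at 5.98 in LysM(+) and 6.58 in TB/TB it was only just past the threshold, 1.52-fold lower, within the background controls on both arrays. Cd40, the receptor by which T cells activate macrophages, had 7.86 in LysM(+) and 7.97 in TB/TB, and Tnfrsf12a, the TWEAK receptor Fn14, had 7.87 in LysM(+) and 7.64 in TB/TB. The T cell costimulator genes Tnfrsf9, Tnfrsf8 and Tnfrsf18, and Tnfrsf19 and Eda2r, were within the background controls on both arrays, with differences between -0.48 and 0.00.

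None of the receptors for BAFF and APRIL was past 1.5-fold (0 of 3 genes, of which 2 reached the floor). With 8.35% of all genes counted, 0 of 3 is near the background. Tnfrsf13b, which encodes TACI, had 10.52 in LysM(+) and 10.52 in TB/TB and lay above the background controls. Tnfrsf13c, the BAFF receptor, had 6.34 in LysM(+) and 6.40 in TB/TB, and Tnfrsf17, which encodes BCMA, had 5.36 in LysM(+) and 5.39 in TB/TB, so that of these receptors only TACI was above the background controls.

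A cluster of mouse receptor genes on chromosome 7 held members on both sides. Tnfrsf26, Tnfrsf22 and Tnfrsf23 are direct protein-coding neighbours; in the mouse, the products of Tnfrsf22 and Tnfrsf23 are known as decoy receptors for TRAIL. Tnfrsf22 had 7.92 in LysM(+) and 7.12 in TB/TB, 1.74-fold higher; of all genes from the floor to below 8 in mean value, 11.2% were at least 1.5-fold higher. Tnfrsf23 had 9.53 in LysM(+) and 9.45 in TB/TB. Tnfrsf26 had 9.28 in LysM(+) and 9.98 in TB/TB, 1.62-fold lower. Of all genes from 8 to below 10 in mean value, 4.11% were at least 1.5-fold lower. The 3 genes were above the background controls on both arrays, and their differences of 0.80, 0.08 and -0.70 cover most of the range of all 25 receptors. They are paralogs with similar sequences, so probes could share signal between them and the single values are uncertain to that extent. Of the 10 other measured genes within 5 protein-coding genes of the cluster, 1 was higher and 1 lower, with a median difference of -0.02. Over all genes 5.67% were higher and 2.68% lower.

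**Figure D2:**
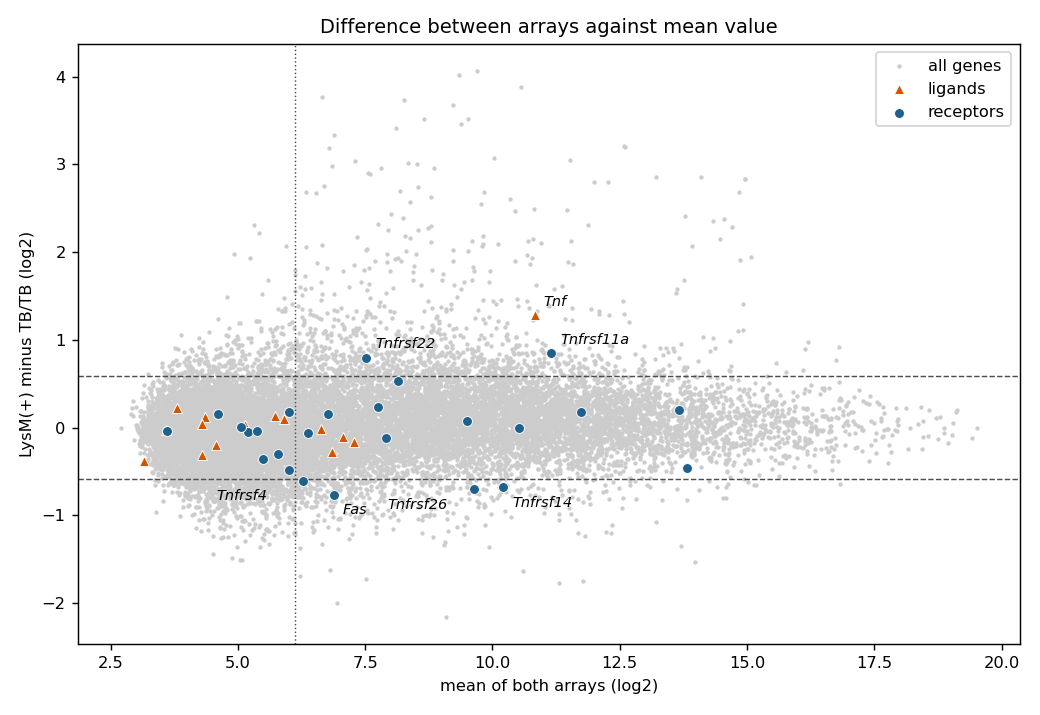
Difference LysM(+) minus TB/TB (vertical axis, log2) against the mean of both arrays (horizontal axis, log2) for 19505 genes in grey, with the 15 ligands as triangles and the 25 receptors as circles; dashed lines mark 1.5-fold and the dotted line the brightness floor of 6.12. The 7 named members lie outside the dashed lines, and Tnf at 1.28 is the farthest from 0.

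The stretch of chromosome 4 from Tnfrsf1b to Tnfrsf18 holds 7 receptor genes. Of these, 5 had lower values in LysM(+): Tnfrsf1b by -0.45, Tnfrsf8 by -0.36, Tnfrsf9 by -0.48, Tnfrsf14 by -0.67 and Tnfrsf4 by -0.60 on the log2 scale. Tnfrsf25 differed by 0.18 and Tnfrsf18 by 0.00. The 133 other measured genes in the same stretch had a median difference of 0.06, with 6 higher and 3 lower by the 1.5-fold rule, 74 positive and 59 negative. Over all genes 5.67% were higher and 2.68% lower, so these counts are near the background. Only Tnfrsf1b and Tnfrsf14 among the 7 were above the background controls on both arrays, so the shared sign rests largely on dim genes. This stretch was chosen after the values were seen and carries no test.

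**Figure D3:**
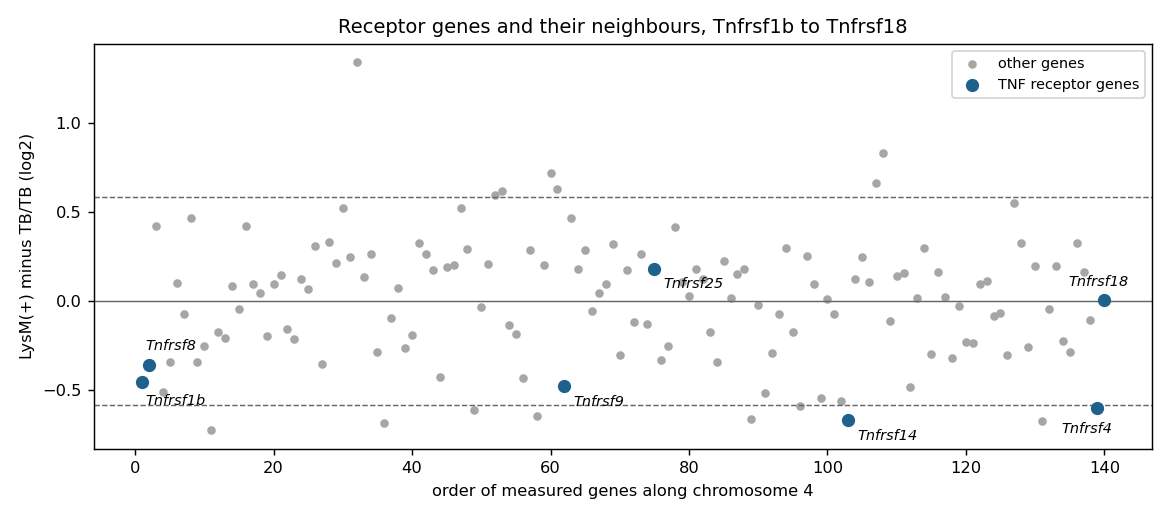
Difference LysM(+) minus TB/TB (vertical axis, log2) for the 140 measured protein-coding genes from Tnfrsf1b to Tnfrsf18, in their order along chromosome 4 (horizontal axis, rank of the gene); large blue points are the 7 receptor genes and small grey points the 133 others, and dashed lines mark 1.5-fold. The points of 5 receptor genes lie between -0.36 and -0.67, while the other genes scatter around a median of 0.06.

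The ligands were then set beside the receptors they are known to bind, 22 pairs of 14 ligands and 17 receptors. In 8 pairs both partners reached the floor on at least 1 array, in 8 only the receptor did, in 2 only the ligand did and in 4 neither did. No pair had both partners past 1.5-fold (0 pairs). Tnf was the only ligand counted, and 8.35% of all genes and 16.1% of those that reached the floor were counted. At such shares 0 pairs says little about ligands and receptors. The receptor alone was past it in 4 pairs (Tnfsf14 with Tnfrsf14, Fasl with Fas, Tnfsf11 with Tnfrsf11a, and Tnfsf4 with Tnfrsf4), and the ligand alone in 2 (Tnf with either TNF receptor). Pairs share ligands and receptors, so they are not independent of each other.

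**Figure D4:**
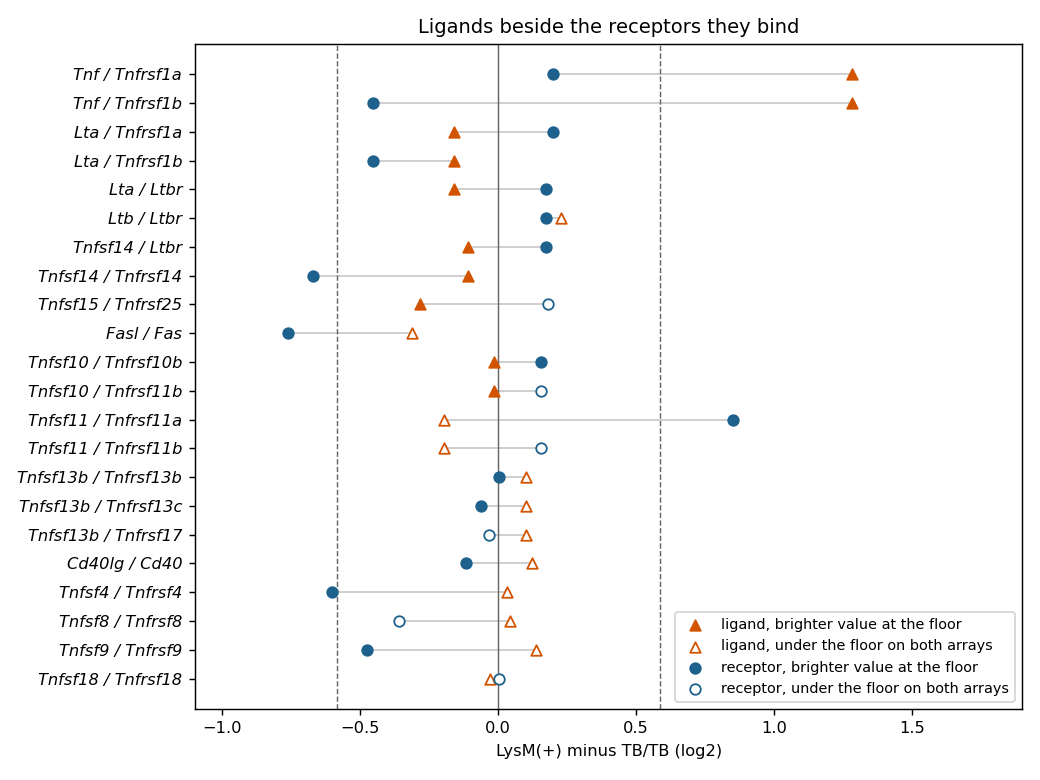
Difference LysM(+) minus TB/TB (horizontal axis, log2) of each ligand (triangle) and receptor (circle) in 22 ligand and receptor pairs (rows); open symbols are genes under the brightness floor on both arrays and dashed lines mark 1.5-fold. No row has both symbols beyond the dashed lines, and Tnf, at 1.28, stands to the right of both of its receptors.

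Genes that act after the receptors were counted next. Among 21 adaptors and cell death genes, 1 was higher, 1 was lower and 19 did not pass, with a median difference of 0.00. All 21 reached the floor on both arrays, and of the 10137 genes that reached it on at least 1 array, a background added after the values were seen, 16.1% were counted (10.9% higher and 5.16% lower), so 2 of 21 is not above the background. The higher one was Ripk3, the kinase of necroptosis, with 9.29 in LysM(+) and 8.40 in TB/TB, 1.85-fold higher. The lower one was Traf2, the adaptor through which TNF receptors reach NF-kB, with 8.30 in LysM(+) and 9.14 in TB/TB, 1.79-fold lower.

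The NF-kB relay and its inhibitors had 3 members higher and 0 lower of 21, against 5.67% higher among all genes and 10.9% among those that reached the floor, as all 21 did. In either direction 14.3% of the 21 were counted, against 16.1% of genes that reached the floor, so the count is not above that share. The median difference was 0.20, beside -0.01 for all genes and 0.07 for those that reached the floor. Tnip3, a partner of the inhibitor A20, had 14.84 in LysM(+) and 13.82 in TB/TB, 2.03-fold higher. Nfkbib, an NF-kB inhibitor, had 11.24 in LysM(+) and 10.39 in TB/TB, 1.80-fold higher, and Tab3, a subunit of the TAK1 kinase complex, had 9.76 in LysM(+) and 9.04 in TB/TB. Of 20 genes known to be induced by TNF, 2 were higher and 0 lower, with a median difference of 0.15. Among all genes 5.67% were higher, and 10.9% of those that reached the floor, as 14 of the 20 did, so 2 is near the background. The higher ones were Fos, given above, and the neutrophil chemokine gene Cxcl2 with 8.19 in LysM(+) and 7.49 in TB/TB. The other 18, such as Icam1 (11.39 in LysM(+) and 11.19 in TB/TB) and Il1b (7.14 in LysM(+) and 7.67 in TB/TB), both named after their values were seen, did not pass and took either sign, with 11 of the 20 positive and 9 negative.

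None of 20 genes that shed TNF superfamily ligands or control Tnf mRNA was past 1.5-fold (0 genes). Among all genes 8.35% were counted, and 16.1% of those that reached the floor. The 20 genes had a median difference of -0.04 and a range from -0.41 to 0.51. Named after their values were seen, Adam17, the protease that releases TNF from the cell surface, had 15.51 in LysM(+) and 15.50 in TB/TB, and Zfp36, whose product tristetraprolin destabilises Tnf mRNA, had 12.96 in LysM(+) and 13.05 in TB/TB. Fas, Tnfrsf10b and Eda2r are also known targets of p53. Of 18 measured p53 targets, these included, 1 was lower and 0 were higher, against 2.68% lower and 5.67% higher among all genes. The lower one was Fas, a family member counted above, and the median difference was -0.05. Among 4 related genes that the name rule leaves out (Eda, Edar, Relt and the adaptor gene Edaradd), 2 were lower by the rule. These were the ectodysplasin receptor gene Edar (5.49 in LysM(+) and 6.51 in TB/TB) and Relt (5.94 in LysM(+) and 6.56 in TB/TB). Both were within the background controls on both arrays, and 2.68% of all genes were lower.

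**Figure D5:**
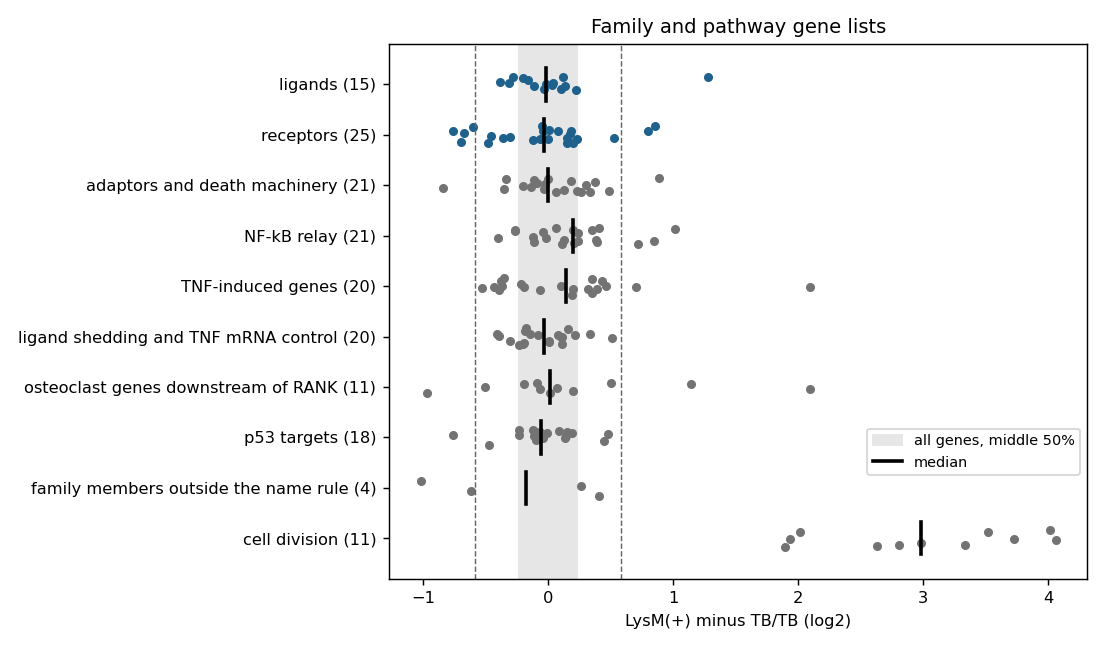
Difference LysM(+) minus TB/TB (horizontal axis, log2) of each gene (point) in the ligands, the receptors and 8 lists (rows, with the number of measured genes), with vertical bars at the medians, a grey band for the middle 50% of all genes and dashed lines at 1.5-fold. Ligands and receptors have medians of -0.02 and -0.03 inside the band, and the cell division list lies wholly to the right with a median of 2.98.

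Other differences between the 2 arrays ran beside these values. All 11 measured cell division genes were higher in LysM(+), with a mean log2 value of 9.94 in LysM(+) and 6.94 in TB/TB. Of these, 6 were above the background controls on both arrays. The other 5 were within them on at least 1 array, so their folds are not exact. Of 10 measured neutrophil markers, 4 were higher and 0 lower, with means of 10.3 in LysM(+) and 9.81 in TB/TB. Among all genes, 5.67% were higher and 2.68% lower by the 1.5-fold rule, and of those that reached the floor 10.9% and 5.16%. The 4 were Ltf, Elane, Retnlg and Cxcr2, of which only Ltf was above the background controls on both arrays. The other 6 did not pass, and of the 10, 8 were positive and 2 negative. The 9 measured macrophage markers were above the background controls on both arrays, and none was past 1.5-fold (0 genes). The T cell markers Cd3e, Cd3d and Cd3g and all 7 NK cell markers were under the floor on both arrays, as were Fasl, Cd40lg and Cd70. Of 9 measured T cell markers, 3 reached the floor and 1 of them, Cd28, was lower. Among dendritic cell, B and plasma cell, stromal, endothelial and progenitor markers, 3 of 7, 2 of 7, 4 of 6, 3 of 5 and 1 of 4 measured genes reached the floor. Of these, 4 were lower in LysM(+) and 0 higher, against 5.16% lower and 10.9% higher among all genes that reached the floor. The lower ones were the stromal markers Col1a2 and Postn, the endothelial marker Vwf, which was 1.88-fold lower, and the plasma cell marker Sdc1. The other stromal and endothelial markers that reached the floor, Col1a1, Dcn, Kdr and Pecam1, differed by 0.06, -0.38, -0.19 and -0.08. The part of these differences in the values of Tnf and the receptors was not tested, and in cultured cells more RNA per cell and more cells that carry it cannot be told apart.

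The bases before the transcription start are shown for the 2 members that were highest and the 2 that were lowest among those with an entry in the RefSeq promoter table of GRCm38.p6 and with a value above the background controls. Of the 40 members, 31 matched that table, with 35 promoters. Each stretch is the 250 bases before the annotated start, given 5′ to 3′ on the strand of the gene: Tnf at chr17:35202008-35202257 on the minus strand, Tnfrsf11a at chr1:105780473-105780722 on the plus strand, Fas at chr19:34290409-34290658 on the plus strand and Tnfrsf14 at chr4:154928078-154928327 on the minus strand. Capitals mark matches to the motifs searched on both strands, which were a kappa B motif (GGNNTTTCC), an AP-1 motif (TGANTCA), a cAMP response element (TGACGTCA), a PU.1 motif (GAGGAAGT) and a TATA box (TATAAA); no marked match overlaps another.
Tnf: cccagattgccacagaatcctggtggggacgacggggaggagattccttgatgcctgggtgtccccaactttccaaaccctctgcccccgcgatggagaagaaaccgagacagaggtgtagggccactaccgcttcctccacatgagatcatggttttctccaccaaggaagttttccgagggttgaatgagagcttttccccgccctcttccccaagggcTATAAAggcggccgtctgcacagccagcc
Tnfrsf11a: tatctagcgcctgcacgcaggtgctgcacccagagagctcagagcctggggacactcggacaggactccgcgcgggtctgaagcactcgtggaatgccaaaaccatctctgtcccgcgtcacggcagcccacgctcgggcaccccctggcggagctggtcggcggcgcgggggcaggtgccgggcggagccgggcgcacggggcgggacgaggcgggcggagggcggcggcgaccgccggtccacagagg
Fas: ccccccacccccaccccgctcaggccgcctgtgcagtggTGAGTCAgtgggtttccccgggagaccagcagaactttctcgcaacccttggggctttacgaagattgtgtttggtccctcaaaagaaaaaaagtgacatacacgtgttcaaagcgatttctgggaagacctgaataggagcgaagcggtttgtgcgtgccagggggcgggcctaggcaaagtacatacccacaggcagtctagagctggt
Tnfrsf14: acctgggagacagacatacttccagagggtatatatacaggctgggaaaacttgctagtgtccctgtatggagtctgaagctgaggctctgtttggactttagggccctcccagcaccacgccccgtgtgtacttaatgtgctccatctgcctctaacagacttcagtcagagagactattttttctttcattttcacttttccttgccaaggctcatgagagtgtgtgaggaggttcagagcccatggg

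The Tnf stretch held a TATA box whose first base lies 29 bases before the start, a motif found in 12.4% of the 32851 promoters in the table and in 7 of the 35 family promoters. The Fas stretch held an AP-1 motif whose first base lies 211 bases before the start, found in 6.75% of all promoters and in 5 of the 35. The Tnfrsf11a stretch matched none of the motifs and was rich in G and C (73.6%, with 31 CG pairs, against a median of 52.4% and 6 CG pairs over all promoters), and the Tnfrsf14 stretch matched none either, at 49.2% and 2 CG pairs. The kappa B motif was found before Ltb, Tnfrsf9, Tnfrsf25 and Tnfrsf13b, in 4 of 35 family promoters and 4.93% of all, and those 4 genes differed between the arrays by 0.23, -0.48, 0.18 and 0.00. The cAMP response element was in 0 of the 35 and in 1.55% of all promoters, and the PU.1 motif in 1, that of Tnfsf18, and in 2.44% of all. A match describes these letters only; members with and without a motif were found among those that differed and those that did not.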

How the data were processed

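The authors deposited log2 expression values per probe set for 2 arrays, which per the submitters' processing notes came from RMA in Affymetrix Expression Console; versions and genome build: not given in the sources used here. RMA subtracts background, matches the arrays' distributions and combines probes. The log base is taken from the method, and the highest value, 19.5, is above what RMA usually gives, so a further transformation is possible; folds depend on the base, directions do not. Of 28846 probe sets, 19572 had 1 gene symbol, 0 had several, and all matched the RefSeq table of GRCm38.p6 by Entrez ID. Probe sets of a gene were averaged. The precision is limited by the number of arrays, 1 per group. The 23 background control probe sets differed between arrays by at most 0.09.

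Differences are LysM(+) minus TB/TB, computed with Python 3.11.15 and pandas 2.3.3, and the counting was tested on simulated data. That test used 2-fold changes in genes clear of the floor with little noise, so it checks the counting code only. It does not show how reliable a 1.5-fold difference is. The rule for named genes was all members, and from each list the members past 1.5-fold, up to 6. Members, 8 pathway lists, 9 marker lists and motifs were chosen with earlier results of these data known. The upper edge of the top brightness range and the letters of the kappa B motif were changed after their values were seen, for reasons of presentation. With the edge first used, 1 lower, the shares beside Tnf and Tnfrsf14 were 10.2% and 2.82%; with the motif first used, which had 1 more leading G, 3 family promoters and 1.41% of all promoters matched. Alternatives were centring, quantile normalization, loess (span 0.4), other probe set summaries, other floors and a 2-fold threshold.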

Additional observations from a re-analysis of the deposited data

How the results depend on the processing

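No paired analysis was possible because each group had 1 array, and for the same reason no replicate could be left out. Each member has 1 probe set, so taking the brightest or the median probe set could not change a member's value and says nothing of stability. Under centring on the median difference, quantile normalization and loess, the signs of the 7 counted members held. All kept their side of the 1.5-fold threshold except Tnfrsf4, which differed by -0.55 after quantile normalization and by -0.53 after loess, leaving 3 lower receptors. Tnf ranged from 1.19 to 1.29, Tnfrsf11a from 0.77 to 0.86 and Fas from -0.76 to -0.72 on the log2 scale. With the brighter value at the highest background control, or both values at the floor, 3 receptors were lower. Without a floor the counts of ligands and receptors were as given. At 2-fold, 0 receptors were higher and 0 lower. The median difference lay between -0.11 and 0.04 for ligands and, by mean or median, between -0.05 and 0.02 for receptors, over all alternatives. These scalings moved the median of all genes by at most 0.02. Signal within the background controls, which covers 12 of 15 ligands and 13 of 25 receptors on at least 1 array, limits what could be seen.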
